A study of Mus musculus with 2 samples.

Results

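The genes described here encode the carriers that move metabolites across the inner mitochondrial membrane (the SLC25 family), the translocases that bring proteins into mitochondria (TOMM and TIMM genes and Samm50) and the voltage-dependent anion channels of the outer membrane (VDAC). They were chosen by gene symbol, without Slc25a31, and by a mean of both libraries of at least 50, which gave 60 genes of 14398 in the table. Another 3 genes with a fitting symbol fell under that floor. The members just above it were Timm10b (mean 53.0) and Slc25a24 (mean 55.5), and those just below were Timm8a2 (47.8 in the control and 36.2 in the other library) and Slc25a29 (24.9 and 43.2).

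RNA sequencing of 2 cultures of 46C cells, a line of mouse embryonic stem cells, gave the data. The control culture (PB) was transfected with an empty vector, and the other culture (PB-ID2) overexpressed ID2, a helix-loop-helix protein that lacks a DNA-binding domain and sequesters E proteins. Both were grown in serum medium with leukemia inhibitory factor on gelatin-coated plates, at passages 21 to 24 of the same line, and no clone is named. With 1 library per group there is no replicate check, no error and no test, so a difference below is one between 2 libraries. The values are the authors' normalized signal, whose sequencing depth is unknown. "Higher" and "lower" refer to PB-ID2 against PB, and each ratio is the log2 of PB-ID2 over PB after 1 was added to both values.

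Nearly all mitochondrial proteins are encoded in the nucleus and made in the cytosol. Precursors pass the outer membrane through the TOM complex, and the TIM23 complex then draws those with a cleavable presequence into the matrix. Carriers of the SLC25 family have no such presequence in most cases: small TIM chaperones escort them through the intermembrane space to the TIM22 complex, which inserts them into the inner membrane. There they exchange nucleotides, phosphate, carboxylic acids, amino acids and cofactors, while VDAC channels let small solutes through the outer membrane.

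The label on the overexpressing library was checked on Id2, which stood at 324 in PB and 26225 in PB-ID2. All 9 listed markers of pluripotent stem cells were above the floor in both libraries, with values from 3823 to 27618 in PB, and 7 of them were higher and 1 lower in PB-ID2. Of 9 markers of fibroblasts or feeder cells, 6 were listed in the table and 5 of those were lower in PB-ID2, with a summed value of 2334 in PB and 1612 in PB-ID2, and Dcn, Lum and Postn were not listed. Of 4 neural markers 3 were listed, 1 higher and 2 lower, and of 4 endoderm markers 2 were listed, 1 higher and 1 lower. Whether other cell types had a part in the differences below was not tested. In RNA from bulk cultures, fewer cells of a type and less RNA per cell cannot be told apart.

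The members as a whole stood close to equal between the libraries. Counted on the whole-number steps that underlie the values, 37 of 60 were lower, 22 higher and 1 equal, beside 51.5% lower and 47.2% higher of all 12679 genes above the floor. Their median log2 ratio was −0.08 (quartiles −0.22 and 0.14), and that of all genes was −0.00229 (quartiles −0.21 and 0.22). At least 1.5-fold lower were 3 members, Slc25a36, Slc25a30 and Slc25a33, where 6.59% of all genes passed that size. At least 1.5-fold higher were 2 members, Slc25a40 and Timm8a1, where 8.00% of all genes did. Slc25a36 alone was at least 2-fold lower, beside 1.86% of all genes, and 0 members were at least 2-fold higher, beside 2.53%. These shares of the members are near or below those of all genes. The values of both libraries had been set to a common distribution, so a shift shared by all genes would not be seen in them.

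**Figure D1:**
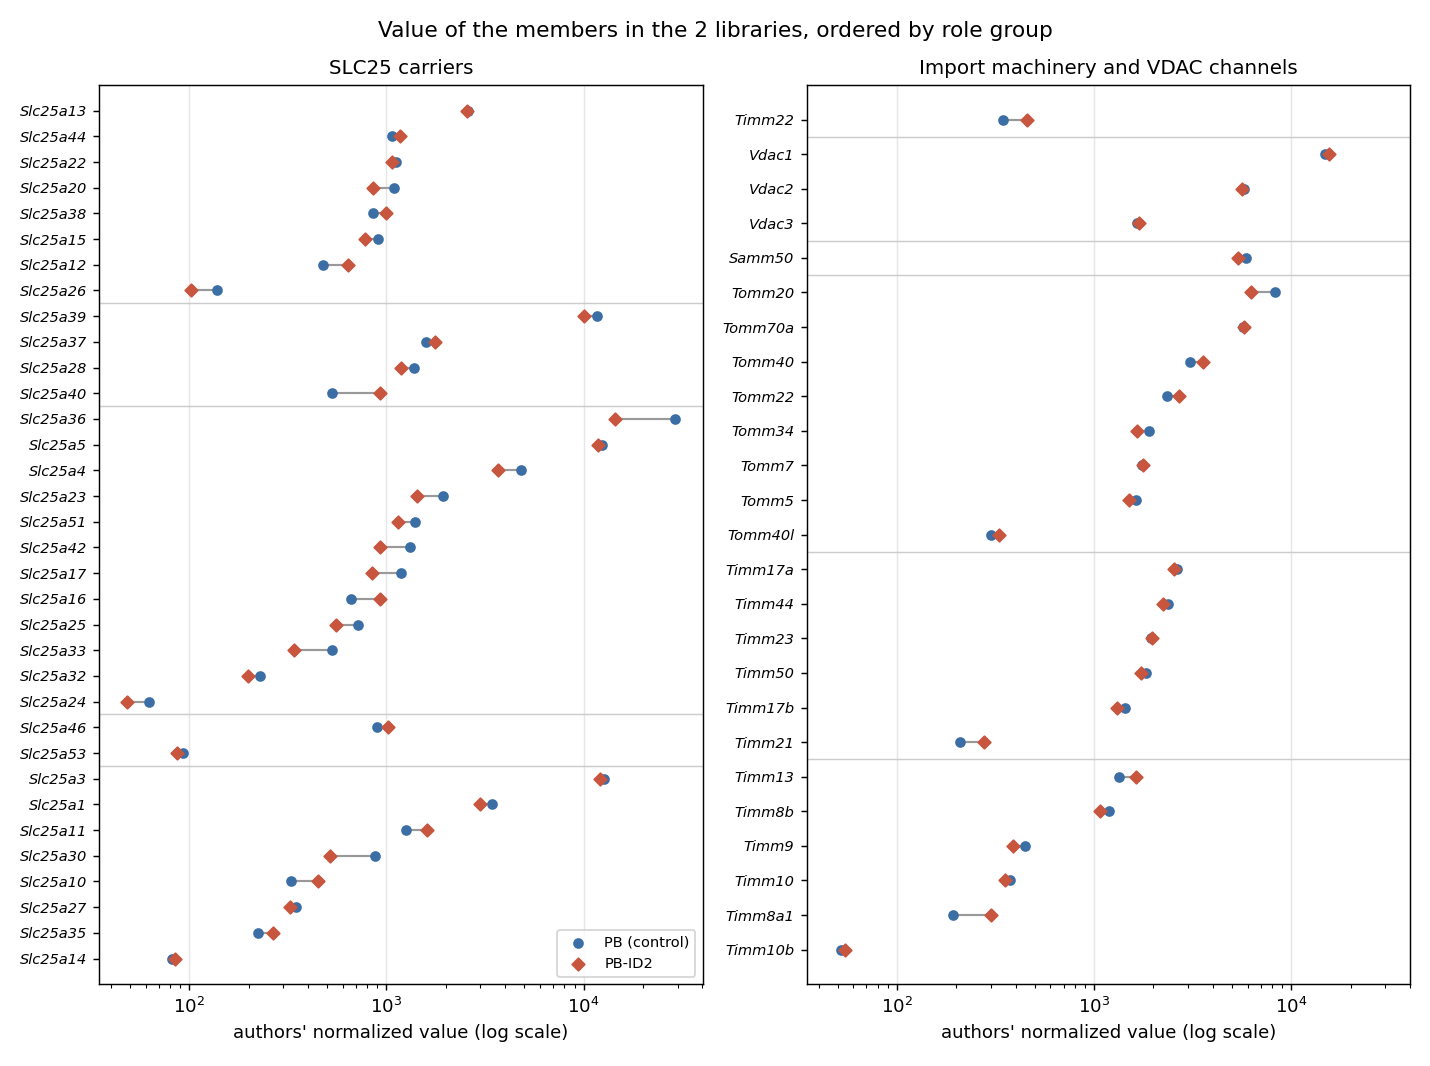
Authors' normalized value (log axis) of 59 members in the PB library (blue circles) and the PB-ID2 library (red diamonds), 1 row per gene, with role groups divided by grey lines. Most pairs of points lie close together, and Slc25a36 (29226 and 14512) has the widest gap among the members with a high value.

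Within the carriers, those for nucleotides and cofactors were mostly lower in PB-ID2, beside 51.5% of all genes. Of 13 such carriers 12 were lower and 1 higher in PB-ID2, with a median log2 ratio of −0.37. Of the other 22 carriers 12 were lower and 10 higher, with a median of −0.05. The difference between these sets of carriers was not tested, since each library is a single sample. The nucleotide and cofactor carriers were singled out after their values were seen. Of these carriers, Slc25a36 and Slc25a42 lay below the 5th percentile of all genes of like level, and the rest lay between the 5th and 95th. Summed over the 13 genes, the value was 56102 in PB and 37714 in PB-ID2 (32.8% lower). Slc25a36 made up much of that sum, and without it the sums were 26876 and 23201 (13.7% lower).

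Slc25a36 and its paralog Slc25a33 carry pyrimidine nucleotides into mitochondria, and they had the lowest ratios of this group. Slc25a36 stood at 29226 in PB and 14512 in PB-ID2, 2.01-fold lower (log2 ratio −1.01). Its ratio was the 4th lowest of the 2536 genes in the highest of 5 equal bins of mean level, where the 5th to 95th percentile of all ratios ran from −0.39 to 0.45. In the authors' deposited table Slc25a36 had a p of 9.74e-05 and an adjusted p of 0.0513. Slc25a33 stood at 529 in PB and 340 in PB-ID2, 1.56-fold lower (−0.64). That lies inside the range of its level bin, −0.71 to 0.86. An annotated gene on the other strand, Gm13068, shares 14.9% of the exon bases of Slc25a33, and no such gene overlaps exons of Slc25a36.

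Per kilobase of exon, Slc25a36 was 19.6 times as high as Slc25a33 in PB and 15.2 times as high in PB-ID2, so Slc25a36 was the main transcript of the pair in both libraries. The sequences shown are the 250 bases before the annotated start of each gene, from RefSeq on GRCm38.p6, given because these paralogs had the lowest ratios in their group. Capitals mark CACGTG, a palindromic form of the E-box bound by several families of basic helix-loop-helix proteins. Both genes lie on the minus strand, and each sequence reads 5′ to 3′ along the gene.
Slc25a36, chr9:97111042-97111291: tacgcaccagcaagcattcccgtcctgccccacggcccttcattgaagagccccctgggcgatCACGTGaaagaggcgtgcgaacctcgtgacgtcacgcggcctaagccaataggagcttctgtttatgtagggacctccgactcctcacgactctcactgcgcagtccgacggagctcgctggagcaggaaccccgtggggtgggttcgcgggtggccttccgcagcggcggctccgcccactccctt
Slc25a33, chr4:149774268-149774517: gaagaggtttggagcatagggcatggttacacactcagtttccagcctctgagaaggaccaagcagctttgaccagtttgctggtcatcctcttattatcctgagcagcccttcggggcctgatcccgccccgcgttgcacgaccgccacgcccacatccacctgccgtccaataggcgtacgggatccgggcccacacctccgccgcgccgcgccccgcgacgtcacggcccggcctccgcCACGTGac
Each window holds CACGTG once. It ends 181 bases before the start of Slc25a36 and 2 bases before that of Slc25a33.

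Such windows were given in that table for 46 of the 60 members, 58 windows in all since some genes have several starts. CACGTG was present in 10 of the 58 windows (17.2%), beside 6.02% of all 32851 windows of the table. The 9 genes that hold it were Slc25a1, Slc25a13, Slc25a14, Slc25a15, Slc25a33, Slc25a36, Timm8a1, Timm9 and Tomm20. Of these, Timm8a1 (0.64) and Slc25a14 (0.05) were higher and the rest lower, beside 61.7% lower of the 60 members and 51.5% of all genes. Slc25a36 and Slc25a33, both among the lower genes, had been picked for display by their low ratios. Whether the motif goes with the ratio was not tested. The general E-box CANNTG, which includes CACGTG and is the class of site that E proteins bind, was present in 63.8% of member windows and 66.2% of all windows. With the marked CACGTG counted, the Slc25a33 window shown above holds 2 matches to CANNTG and the Slc25a36 window 1. CGGAAG, the core of sites for ETS proteins such as GABP, was searched on both strands and was present in 31.0% of member windows and 13.6% of all windows. CGGAAG does not overlap the other motifs in its letters. Both CACGTG and CGGAAG hold the letters CG, and the set of all windows was not matched to the members for level or base composition. Whether these shares are particular to the members was therefore not tested. A match in these letters is a description of the sequence and not a measured binding site.

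The ADP/ATP carriers Slc25a4 and Slc25a5, which exchange matrix ATP for cytosolic ADP, differed in size of ratio. Slc25a4 stood at 4803 in PB and 3692 in PB-ID2 (1.30-fold lower, −0.38), just inside the range of its level bin. Slc25a5 stood at 12459 and 11806 (−0.08). Per kilobase of exon, Slc25a5 was 4.03 times as high as Slc25a4 in PB and 4.96 times as high in PB-ID2. Slc25a5 had the highest value per kilobase of all members in both libraries, 10048 in PB and 9521 in PB-ID2. Slc25a5 has an annotated pseudogene copy, so that some of its reads may be assigned elsewhere.

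All 3 calcium-regulated carriers of ATP-Mg and phosphate were lower. Slc25a23 stood at 1939 in PB and 1423 in PB-ID2 (−0.45), at the edge of its level bin's range, −0.45 to 0.51. Slc25a25 stood at 717 and 555 (−0.37), and Slc25a24 at 62.7 and 48.2 (−0.37), where ratios of all genes spread widest. The group's cofactor carriers were lower with 1 exception. Slc25a42, which brings coenzyme A into the matrix, stood at 1313 and 932 (−0.49), below its bin's range. Slc25a17, a cofactor carrier of peroxisomes rather than mitochondria, stood at 1188 and 848 (−0.49).

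Slc25a51, which imports NAD, stood at 1389 in PB and 1151 in PB-ID2 (−0.27), and Slc25a32, linked to folate and FAD, at 229 and 199 (−0.20). The exception was Slc25a16, a carrier linked to coenzyme A, at 661 and 931 (1.41-fold higher, 0.49). Slc25a16 and Slc25a42, both tied to the same cofactor, thus stood in opposite directions.

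**Figure D2:**
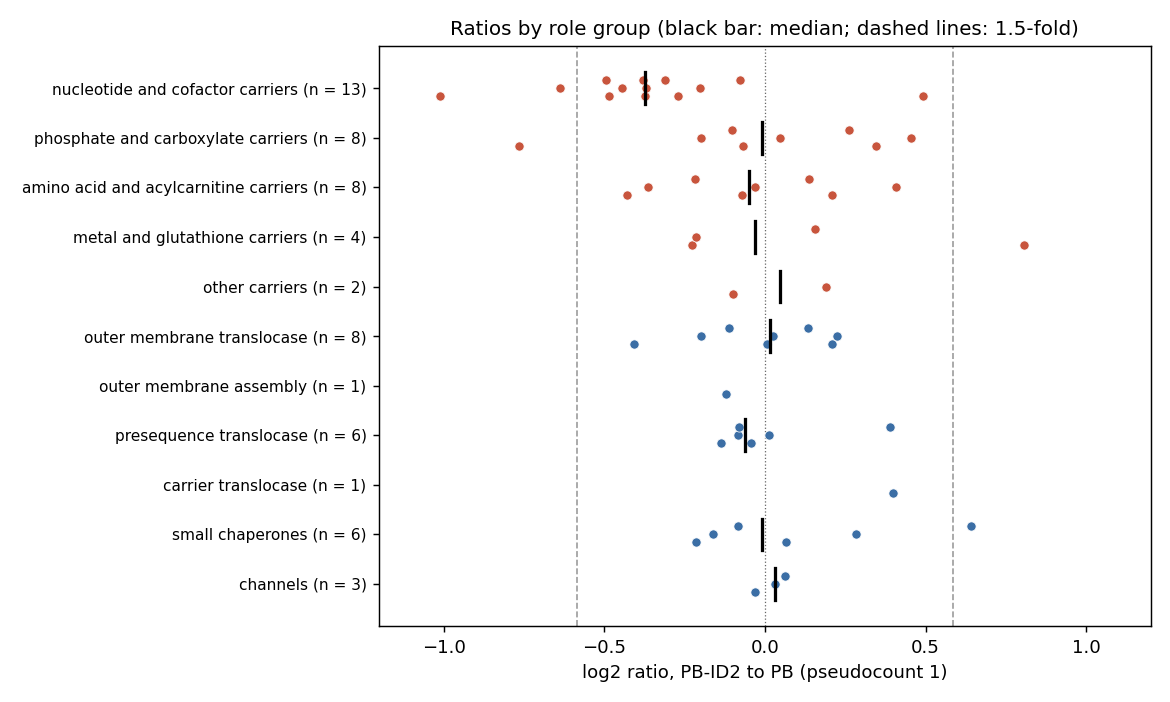
Log2 ratio of PB-ID2 to PB (pseudocount 1) of each member by role group, carriers in red and the other members in blue, with black bars at group medians and dashed lines at 1.5-fold. The nucleotide and cofactor carriers, singled out after their values were seen, have a median of −0.37 with 12 of 13 genes left of 0. Medians of the other groups with several genes lie between −0.06 and 0.05.

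Carriers of phosphate and carboxylic acids, with the uncoupling-like carriers among them, went both ways (4 higher and 4 lower of 8, median −0.00959). Slc25a30, an uncoupling-like carrier, was the lowest, at 879 in PB and 516 in PB-ID2, 1.70-fold lower (−0.77). It was the 31st lowest of 2535 genes in its level bin, whose range was −0.54 to 0.60, and the authors' deposited table lists it with a p of 0.0495 and an adjusted p of 1. The other uncoupling-like carriers stood near equal, Slc25a27 at 348 and 325 (−0.10) and Slc25a14 at 81.6 and 84.4 (0.05). The dicarboxylate carrier Slc25a10 stood at 326 and 448 (0.46), and the oxoglutarate carrier Slc25a11 of the malate-aspartate shuttle at 1260 and 1600 (0.34). For Slc25a10, 11.3% of exon bases are shared with Gm11788 on the other strand.

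Slc25a1, which exports citrate for fatty acid and sterol synthesis, stood at 3413 in PB and 2971 in PB-ID2 (−0.20). Slc25a3, the phosphate carrier that supplies ATP synthase, had one of the highest values and stood at 12740 and 12159 (−0.07). Slc25a35, whose substrate is not well defined, stood at 223 and 267 (0.26), and 22.3% of its exon bases are shared with Rangrf on the other strand.

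Carriers of amino acids and acylcarnitine had a median of −0.05, with 3 of 8 higher and 5 lower, and none was 1.5-fold apart. The aspartate-glutamate carriers, which complete the malate-aspartate shuttle, differed in ratio: Slc25a12 stood at 479 in PB and 635 in PB-ID2 (0.41), and Slc25a13 at 2603 and 2549 (−0.03). Per kilobase, Slc25a13 was 11.1 times as high as Slc25a12 in PB and 8.17 times as high in PB-ID2. The carnitine-acylcarnitine carrier Slc25a20, needed for fatty acid oxidation, stood at 1099 and 853 (−0.36). The S-adenosylmethionine carrier Slc25a26 stood at 138 and 102 (−0.43), a low value in a bin whose range was −1.09 to 1.23.

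The remaining amino acid carriers were closer to equal. The ornithine carrier Slc25a15 stood at 904 in PB and 778 in PB-ID2 (−0.22), and the glutamate carrier Slc25a22 at 1121 and 1067 (−0.07). Slc25a38, the glycine carrier used in heme synthesis, stood at 860 and 995 (0.21), and the branched-chain amino acid carrier Slc25a44 at 1063 and 1170 (0.14).

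Among carriers of iron and glutathione, the glutathione carriers stood in opposite directions. Slc25a40 stood at 527 in PB and 922 in PB-ID2, 1.75-fold higher (0.81), the highest ratio of all members and above its bin's range, −0.54 to 0.60. The authors' deposited table gives Slc25a40 a p of 0.0368 and an adjusted p of 1. Its paralog Slc25a39 stood at 11685 and 10072 (−0.21). Per kilobase, Slc25a39 was 36.6 times as high as Slc25a40 in PB and 18.04 times as high in PB-ID2, so the less abundant paralog had the larger ratio. The mitoferrins, which import iron, were closer to equal, with Slc25a28 at 1384 and 1184 (−0.23) and Slc25a37 at 1590 and 1771 (0.15).

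Outside these groups were Slc25a46, an outer membrane protein tied to mitochondrial shape, at 896 in PB and 1023 in PB-ID2 (0.19), and Slc25a53, of unknown substrate, at 92.5 and 86.4 (−0.10).

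**Figure D3:**
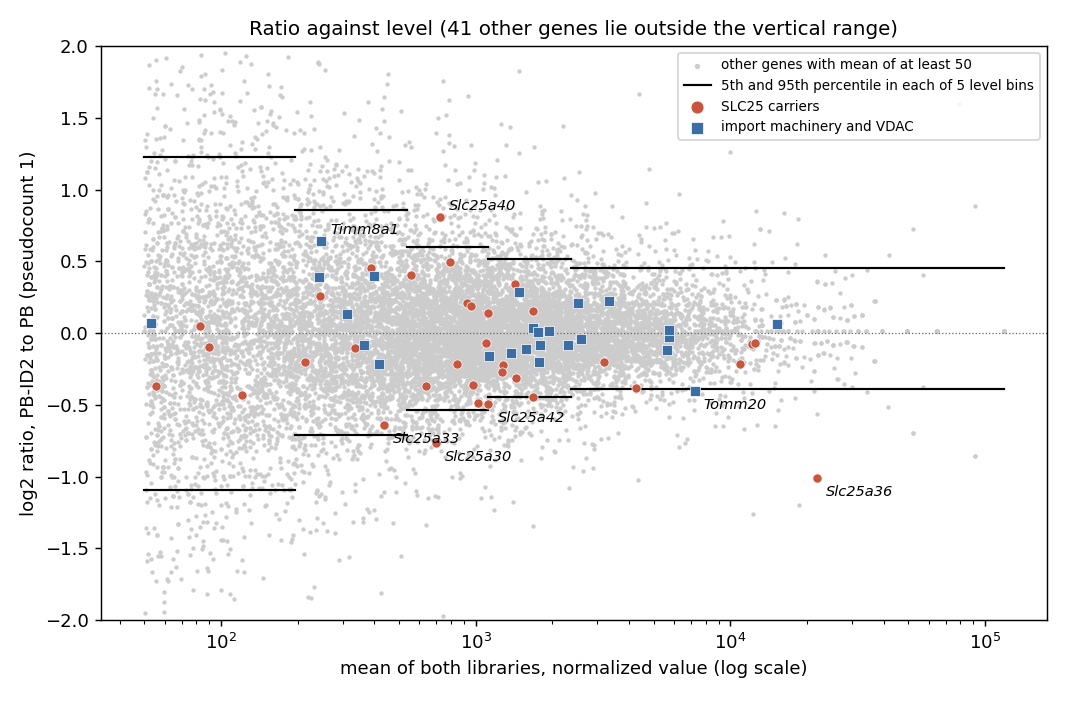
Log2 ratio of PB-ID2 to PB (pseudocount 1) against the mean of both libraries (log axis) for carriers (red circles), import and VDAC genes (blue squares) and other genes with a mean of at least 50 (grey), with black lines at the 5th and 95th percentile of all genes in each of 5 equal bins of level. Slc25a36, Slc25a30, Slc25a42 and Tomm20 lie below the lines and Slc25a40 above, and 41 other genes lie outside the vertical range.

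Against this spread by level, 4 members lay below the 5th percentile of their bin and 1 above the 95th, where 5.01% of all genes lie on each side by construction. The other 55 members lay inside. The spread of all ratios narrowed with level, from −1.09 to 1.23 in the lowest bin, which holds Slc25a24, to −0.39 to 0.45 in the highest, which holds Slc25a36.

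The import machinery went both ways. Of its 22 genes 12 were lower, 9 higher and 1 equal, beside 51.5% lower and 47.2% higher of all genes. The median of the 22 genes was −0.02, and their ratios ran from −0.41 to 0.64. Of the 8 Tomm genes, which include the cytosolic Tomm34, 4 were higher and 4 lower (median 0.02). Tomm20, a receptor for presequences, stood at 8240 in PB and 6218 in PB-ID2 (1.33-fold lower, −0.41), below the range of its level bin. Tomm22, the central receptor that works with it, stood at 2331 and 2693 (0.21). Per kilobase, Tomm20 was 1.19 times as high as Tomm22 in PB and Tomm22 was 1.29 times as high as Tomm20 in PB-ID2. That change of order rests on exon lengths of 4.91 kb for Tomm20 and 1.65 kb for Tomm22, which may differ in another annotation. Before division by length, Tomm20 had the higher value in both libraries.

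Tomm70a, the receptor for carrier precursors, stood at 5694 in PB and 5791 in PB-ID2 (0.02). The pore protein Tomm40 stood at 3067 and 3584 (0.22) and its paralog Tomm40l at 299 and 328 (0.13). Gm20512 on the other strand shares 15.4% of the exon bases of Tomm40. For Tomm40l, 45.5% of exon bases are shared with Nr1i3 on the other strand, and reads from that shared stretch cannot be assigned to either gene in these libraries. The small subunits Tomm5 and Tomm7 stood at 1632 and 1511 (−0.11) and at 1759 and 1767 (0.00581, counted as lower on whole steps). Tomm34, a cytosolic co-chaperone of import, stood at 1899 and 1654 (−0.20), and Samm50, which inserts barrel proteins into the outer membrane, at 5862 and 5394 (−0.12).

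In the TIM23 complex 5 of 6 genes had ratios from −0.14 to 0.01. The channel protein Timm23 had equal whole-number steps in both libraries (1938 in PB and 1956 in PB-ID2). Timm17a and Timm17b, alternative partners of the channel, stood at 2627 and 2552 (−0.04) and at 1436 and 1306 (−0.14). The presequence receptor Timm50 stood at 1833 and 1732 (−0.08), and Timm44, which anchors the import motor, at 2375 and 2241 (−0.08). Timm21, a subunit that links TIM23 to TOM and to respiratory complexes, was the exception, at 210 and 275 (0.39), inside the range of its low level bin.

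The carrier pathway behind the TOM complex held the highest ratio of the import genes. Timm8a1, whose human counterpart is mutated in deafness-dystonia syndrome, stood at 193 in PB and 301 in PB-ID2, 1.56-fold higher (0.64), inside its bin's range of −0.71 to 0.86. Its partner Timm13 stood at 1337 and 1628 (0.28), so both members of that chaperone complex were higher. Timm9 and Timm10, which form the main chaperone for carriers, were slightly lower, at 448 and 386 (−0.21) and at 376 and 355 (−0.08). Timm8b stood at 1191 and 1066 (−0.16) and Timm10b at 51.7 and 54.3 (0.07). Nkapd1 on the other strand shares 15.6% of the exon bases of Timm8b. Timm22, the channel that inserts carriers, stood at 344 and 454 (0.40), inside its bin's range.

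The VDAC channels, the main route for ATP, ADP and metabolites across the outer membrane, had ratios near 0 in all 3 genes. Vdac1 stood at 14883 in PB and 15539 in PB-ID2 (0.06), Vdac2 at 5776 and 5657 (−0.03) and Vdac3 at 1660 and 1698 (0.03). Per kilobase of exon, Vdac1 was 2.99 times as high as Vdac2 in PB and 3.19 times in PB-ID2, and Vdac2 was 2.07 and 1.98 times as high as Vdac3. The order Vdac1, Vdac2, Vdac3 was thus the same in both libraries. Vdac3, like Slc25a5, has an annotated pseudogene copy to which some of its reads may have been assigned. Only copies named as the member symbol followed by -ps were searched, so other members may have copies under other names.

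Per kilobase of exon, the same 5 genes had the highest values of the 60 members in both libraries: Slc25a5, Vdac1, Slc25a39, Slc25a3 and Slc25a36. Slc25a36 was the fifth of them in both, at 5509 in PB and 2736 in PB-ID2. Slc25a39 and Slc25a3 changed places, and Tomm40 moved from place 11 in PB to place 7 in PB-ID2, while Slc25a4 moved from place 6 to place 9. No error is known for these places, and neighbours such as Slc25a39 (6935 per kilobase in PB) and Slc25a3 (6547) cannot be ordered beyond these libraries. Exon lengths came from a GRCm38 annotation that may differ from the authors'.

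Genes that work with these members were read from a list of 60 names, with earlier symbols of some genes among them. The names found in the table and above the floor were 53. Of these, 33 were lower, 18 higher and 2 equal, beside 51.5% lower and 47.2% higher of all genes. The median of the 53 was −0.04. At least 1.5-fold higher was 1 of the 53, beside 8.00% of all genes. It was Hspa8, the cytosolic chaperone that delivers precursors to TOM, at 39235 in PB and 118714 in PB-ID2 (1.60). Its PB-ID2 value is the highest in that library and shared with other genes, so the ratio is limited by that ceiling. At least 1.5-fold lower were 2 of the 53, beside 6.59% of all genes, so both shares of the partners are below those of all genes. Mpc1, a subunit of the mitochondrial pyruvate carrier, stood at 271 and 143 (−0.92). Immp2l, an inner membrane peptidase subunit, stood at 113 and 66.3 (−0.77). Mpc2, the other subunit of the pyruvate carrier, named after its values were seen, stood at 300 and 285 (−0.07).

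Partners on the matrix side went both ways, with 4 of 7 genes of the import motor list higher and 3 lower (median 0.10), and 3 of 6 genes of matrix folding and proteolysis higher and 3 lower (median 0.01). Hspa9, the motor that pulls precursors through TIM23, stood at 33979 in PB and 39640 in PB-ID2 (0.22), and the matrix chaperonin Hspd1 at 21882 and 29492 (0.43), both inside the range of their level bin, −0.39 to 0.45. Chchd4, which folds the small TIM proteins by oxidation, stood at 649 and 594 (−0.13). All 5 listed peptidases that process precursors were lower, with a median of −0.38, beside 51.5% of all genes. Each lay inside the range of its level bin, and Pmpca stood near equal, at 3595 and 3565 (−0.01). The 8 listed regulators of mitochondrial biogenesis split into 4 higher and 4 lower (median 0.03).

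The authors' deposited table gives 3 members an unadjusted p under 0.05 (Slc25a36, Slc25a40 and Slc25a30), beside 4.33% of all genes above the floor, and 0 members an adjusted p under 0.05. Of the 60 members, 59 have an adjusted p of 1 in the authors' deposited table. No replicate stands behind these p-values, so the spread they assume was not observed within a group.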

How the data were processed

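RNA was measured in 2 libraries, 1 per group. Per the labels, Trizol RNA went into libraries of the TruSeq RNA Sample Prep Kit v2, a kit without strand marking; annotated exons of 18 members overlap a gene on the other strand. The submitters' processing notes name STAR, DESeq and mm9; versions, annotation and counter are not given there. The authors deposited a normalized signal value per gene and library, the mean of both, a fold (PB-ID2 over PB), its log2 and p-values with adjusted p-values.

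Deposited signal values were whole multiples of a fixed step (tolerance 0.01 steps; 1 step is 0.995 in PB and 1.005 in PB-ID2). Sorted, these whole numbers were identical in both libraries, with 0 ranks that differed, so the values had been set to a common distribution and are not reads. The deposited p-values may rest on them. No interval for counting error was computed, since depth is unknown.

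From these values, log2((PB-ID2 + 1)/(PB + 1)) was computed for the 12679 genes with a mean of at least 50, with pandas 2.3.3 and numpy 2.4.6 in Python 3.11.15. No member stood at the highest value of a library. Calls are by size (1.5-fold and 2-fold) alone. Members are named with both values, apart from 1 that is not reported here but is counted in the lists; of the partners, those at least 1.5-fold apart, Hspa9, Hspd1 and Chchd4. Exon lengths (GENCODE M21, 60 of 60 members matched by symbol) and RefSeq upstream windows are on GRCm38, not the authors' build. The members, role groups and lists were chosen with earlier results of these data known. The ratio was tested on simulated data.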

Additional observations from a re-analysis of the deposited data

How the results depend on the processing

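The alternatives were pseudocounts of 0.1 and 10, values rescaled to a median ratio of 1, the authors' own log2 column, a floor of 250 and no floor. Values were counted as moved when a log2 ratio differed by over 0.1 or a count by over 1.5 times. With a floor of 250, 1 member was at least 1.5-fold higher instead of 2, since Timm8a1 (mean 247) falls under that floor. The other 43 recomputed medians and counts, and all 240 recomputed ratios of single members, stayed within these limits; the pseudocounts and the rescaling can hardly move genes of this level, so this is not a measure of stability. Alternatives chosen after seeing the data were the settings applied to the nucleotide and cofactor carriers, whose median lay between −0.38 and −0.36, and leaving out Slc25a36 and Slc25a17 there (−0.37) and Slc25a36 from all members (−0.08). No paired analysis was possible because each group has 1 library, and for that reason no library could be left out.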

Other observations

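Genes of the family outside the 60 members are given as values only. Timm29, a subunit of the TIM22 complex, is listed under its earlier name 1810026J23Rik, and stood at 1443 in PB and 1172 in PB-ID2 (1.23-fold lower, −0.30), opposite in direction to Timm22. Under the floor of 50, the basic amino acid carrier Slc25a29 stood at 24.9 and 43.2, the glutamate carrier Slc25a18 at 23.9 and 26.1, and Timm8a2, a paralog of Timm8a1, at 47.8 and 36.2. Among the peptidases, named after their values were seen, Mipep stood at 988 and 711 (−0.47) and Immp1l at 308 and 236 (−0.38), and Dnajc19, a co-chaperone of the import motor, stood at 826 and 633 (−0.38).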
